A study of Mus musculus with 10 samples.

Results

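The AMPA and NMDA receptor subunit genes studied here were Gria1, Gria2 and Gria4 (AMPA) and Grin1, Grin2a, Grin2b, Grin2c, Grin2d and Grin3a (NMDA), 9 of 21883 protein-coding genes. The members were chosen by name, and a region belonged to a gene when at least 1 bp of it lay in the gene body or within 5 kb of either end, a stretch called the locus below. The data are ChIP-seq region lists (DNA bound by a protein or carrying a histone mark, recovered with an antibody and sequenced) from primary cortical neurons of C57BL/6J mice, grown for 6 days in vitro and kept overnight in 3% serum. One group of cultures was depolarized for 45 min with KCl at 50 mM and the other was left untreated. The antibodies were against Gtf3c1, Rpc155, H3K4me1 and H3K27ac, so there were 8 lists, 1 for each antibody and condition, and total chromatin was the control. The design text gives 3 biological replicates per condition, but with 1 list each no difference has a replicate error and none was tested. Fold enrichment below is the deposited value of a region, its summit over the local background, and was not adjusted between libraries.

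AMPA receptors are tetramers of GluA subunits that open rapidly on glutamate release and carry most of the fast excitatory current in cortex, with Gria2 as the subunit that makes the channel impermeable to calcium. NMDA receptors pair the obligatory subunit encoded by Grin1 with subunits encoded by Grin2 or Grin3 genes, and admit calcium when glutamate binds while the membrane is depolarized. Gtf3c1 is the DNA-binding core of TFIIIC, the factor that recruits RNA polymerase III to tRNA genes, and Rpc155 is the catalytic subunit of that polymerase. H3K4me1 marks enhancers, and H3K27ac marks active enhancers and promoters.

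The start sites of Gria1, Grin2a, Grin2b and Grin3a were not used here. For the other 5 of the 9 genes, all on the minus strand, a RefSeq promoter sequence (GRCm38.p6) was at hand. It ran from 250 bases before to 50 bases after the start site. The promoters of the 4 of these genes that had a Gtf3c1 region at the start are shown 5′ to 3′, since they differ in which factor reached them and in which condition. In Gria2 (chr3:80802786-80803085) and Grin2d (chr7:45866632-45866931) the capitals mark the bases inside an Rpc155 region of the untreated list, 246 and 152 bases. The start sites used for Gria2 and Grin2d, 80802835 and 45866681, lay inside the annotated genes, whose higher-coordinate ends were 80804227 and 45871194. In Gria4 (chr9:4796185-4796484) the capitals mark the 139 bases inside the Gtf3c1 region of the KCl list, which the untreated region did not reach. In Grin1 (chr2:25319138-25319437) they mark CGTCA, the CRE half-site TGACG on the other strand, at positions −31 and −5 from the start.

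Gria2: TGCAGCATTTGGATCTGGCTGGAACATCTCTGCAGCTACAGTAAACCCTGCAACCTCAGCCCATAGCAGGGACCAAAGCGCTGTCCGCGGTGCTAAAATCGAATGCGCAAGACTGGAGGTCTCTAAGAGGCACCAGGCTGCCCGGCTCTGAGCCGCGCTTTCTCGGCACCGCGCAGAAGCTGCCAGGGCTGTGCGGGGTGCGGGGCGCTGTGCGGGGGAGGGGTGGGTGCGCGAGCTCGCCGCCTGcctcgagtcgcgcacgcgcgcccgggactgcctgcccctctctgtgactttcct

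Gria4: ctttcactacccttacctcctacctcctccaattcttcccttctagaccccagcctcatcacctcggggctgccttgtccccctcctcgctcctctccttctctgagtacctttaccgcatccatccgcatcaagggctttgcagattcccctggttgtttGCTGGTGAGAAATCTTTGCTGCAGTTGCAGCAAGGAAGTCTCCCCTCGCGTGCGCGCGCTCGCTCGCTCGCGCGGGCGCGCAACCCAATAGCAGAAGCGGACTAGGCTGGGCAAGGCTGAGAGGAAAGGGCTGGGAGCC

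Grin1: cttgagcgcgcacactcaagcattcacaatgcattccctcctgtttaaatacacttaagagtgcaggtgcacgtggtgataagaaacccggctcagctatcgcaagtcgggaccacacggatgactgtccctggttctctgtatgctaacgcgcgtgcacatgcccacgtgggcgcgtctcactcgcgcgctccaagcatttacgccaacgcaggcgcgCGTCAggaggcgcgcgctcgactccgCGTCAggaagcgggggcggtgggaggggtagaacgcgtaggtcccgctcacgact

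Grin2d: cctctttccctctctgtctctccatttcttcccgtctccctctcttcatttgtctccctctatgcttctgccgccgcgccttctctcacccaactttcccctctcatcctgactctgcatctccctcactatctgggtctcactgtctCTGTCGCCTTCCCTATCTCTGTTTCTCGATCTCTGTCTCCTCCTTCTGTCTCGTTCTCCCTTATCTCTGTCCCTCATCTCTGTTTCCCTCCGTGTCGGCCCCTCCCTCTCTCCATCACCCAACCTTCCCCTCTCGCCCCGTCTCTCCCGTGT

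The 4 promoters were rich in G and C (65.7% in Gria2, 59.7% in Gria4, 60.7% in Grin1 and 56.0% in Grin2d), against a median of 52.7% over 32851 promoters of this length. Letters were searched on both strands in all 5 member promoters, Grin2c included. The CRE half-site TGACG, which is part of the full CRE, occurred in Grin1 and in 20.8% of all promoters. The AP-1 letters TGANTCA (7.81% of all promoters), the full CRE TGACGTCA (1.79%), NRF1 GCGCATGC (2.71%), the B box GTTCGANTC that TFIIIC reads in tRNA genes (0.167%) and the REST half-site TTCAGCACC (0.371%) were in none of the 5 windows. A match is a description of these letters and not evidence of binding.

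All 9 genes had H3K4me1, and 8 of them had H3K27ac. The KCl and untreated lists of H3K4me1 held a region at 9 and 9 of the 9 genes, against 77.9% and 77.8% of all protein-coding genes. H3K27ac regions were listed at 8 of 9 genes with KCl and at 8 of 9 untreated, with Grin2c without one in either list, against 66.0% and 62.9% of all genes. Gtf3c1 was listed at 7 genes with KCl and at 8 untreated (58.6% and 60.1% of all genes). Rpc155 was listed at 4 genes with KCl and at 7 untreated (14.6% and 33.6% of all genes). These shares are over genes of all lengths, and a region was more common at long genes. Among 2428 genes of at least 100 kb, ranked by covered share, those without an Rpc155 region began at rank 751 with KCl and 1500 untreated. For Gtf3c1 they began at 2121 and 2233, and for H3K27ac at 2241 and 2190.

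Summed over the 9 genes, Gtf3c1 gave 242 regions covering 113 kb (5.45% of the loci) with KCl and 206 regions covering 88.2 kb (4.26%) untreated. Without Grin2b, a count made after its values were seen, there were 86 regions over 40.5 kb with KCl and 100 regions over 47.8 kb untreated, so the larger total with KCl came from that gene. Rpc155 gave 4 regions covering 2.70 kb with KCl and 16 regions covering 7.76 kb untreated. Over the whole lists the same antibody gave 4251 regions with KCl and 12531 untreated, so the shorter KCl list is not particular to the receptor genes. H3K4me1 gave 356 regions over 332 kb with KCl and 360 over 325 kb untreated. Its share of a locus ran from 2.54% (Grin3a) to 50.1% (Grin1) with KCl and from 1.95% to 44.8% at the same 2 genes untreated, and the ratio of the covered lengths stayed between 0.967 (Grin2a) and 1.3 (Grin3a). H3K27ac gave 91 regions over 103 kb with KCl and 112 over 110 kb untreated.

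Coverage was compared gene by gene, and a gene was counted as longer or shorter when the covered length of its locus was at least 1.5 times longer or shorter with KCl than untreated. For Gtf3c1, 1 of 8 genes with a region in either list was longer (Grin2b), against 27.9% of all genes and 13.2% of genes of at least 100 kb. Gria4 and Grin3a, 2 of 8, were shorter, against 29.5% of all genes and 42.9% of the long genes. For Rpc155, 0 of 7 genes were longer, against 13.6% of all and 8.69% of long genes. Grin1, Gria2, Grin2b, Grin2d and Grin2a, 5 of 7, had shorter Rpc155 coverage, near the 74.6% of all genes and 79.5% of long genes. For H3K4me1, 0 of 9 genes were longer (7.32% of all genes) and 0 were shorter (4.72%). For H3K27ac, 1 of 8 genes was longer (Grin3a, against 40.6% of all genes) and 0 were shorter (6.81%). The median ratio of covered length, KCl over untreated, over the genes covered in both lists was 0.761 at the receptor genes for Gtf3c1, against 1.01 over all genes and 0.789 over long genes. For H3K27ac it was 1.01, against 1.34 over all genes and 1.04 over long genes.

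**Figure D1:**
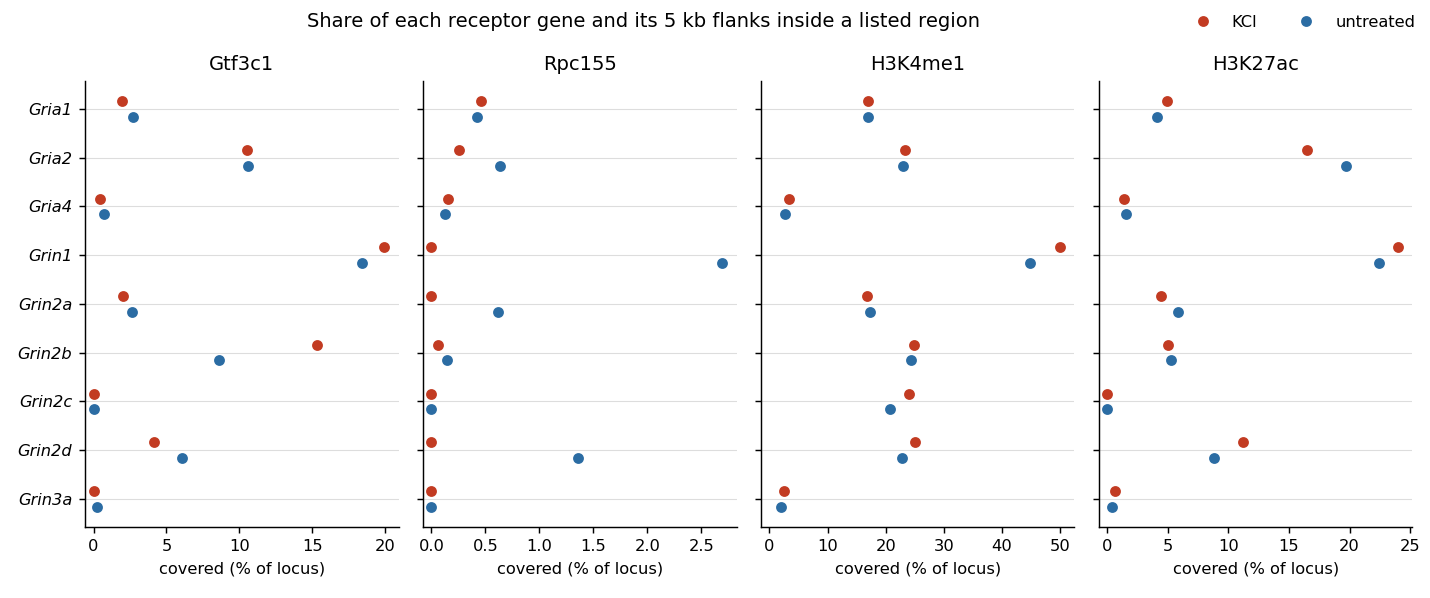
The percentage of each locus (gene body and 5 kb on each side) inside a listed region, by gene and antibody, with 1 point per list (KCl above, untreated below) and no error. Gtf3c1 covered 15.3% of the Grin2b locus with KCl and 8.59% untreated, while the H3K4me1 points of each gene lie close together. The axes differ between panels.

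Gria1 encodes GluA1, the AMPA subunit whose insertion into synapses accompanies potentiation. Its lower-coordinate end held Gtf3c1 regions near the top of both lists. Ranks of lists of different lengths are not compared here. With KCl it was 1 region, chr11:57011043-57013509, at a fold enrichment of 32.5 and rank 69 of 58090 by −log10 q. Untreated there were 2 regions over the same stretch, chr11:57011084-57011942 at 21.8 (rank 172 of 66622) and chr11:57012194-57013441 at 8.95. Rpc155 lay on the same site in both lists, at chr11:57011144-57012635 with a fold enrichment of 19.8 with KCl and at chr11:57011230-57012618 with 10.4 untreated. Its summit was 8 bp from the Gtf3c1 summit with KCl and 10 bp untreated. The nearest annotated tRNA gene lay 972 kb away. H3K27ac had a fold enrichment of 9.05 there with KCl and 8.63 untreated.

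The locus of Gria1 held 14 Gtf3c1 regions with KCl, 3 of which overlapped an untreated region, and 22 untreated, 4 of which overlapped a KCl region. Over the whole Gtf3c1 lists 51.1% of KCl regions and 45.6% of untreated regions overlapped one of the other condition. Gtf3c1 covered 1.95% of the locus with KCl and 2.72% untreated, against medians of 0.801% and 1.06% over genes of at least 100 kb. The strongest H3K4me1 region with KCl lay inside the gene at chr11:57153786-57157084, with a fold enrichment of 17.2, against 10.6 for the region over it in the untreated list. H3K27ac on it was at 5.13 with KCl and 4.57 untreated. Neither Gtf3c1 nor Rpc155 was listed on that site in either condition. The strongest H3K4me1 region of the untreated list was another one, chr11:57029391-57031338 at 12.3, with untreated Gtf3c1 and H3K27ac regions on it.

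Gria4 encodes GluA4, a subunit prominent in fast-spiking interneurons. It had the same pair of factors near its start. Gtf3c1 was at chr9:4794931-4796323 with a fold enrichment of 34.6 with KCl (rank 57 of 58090), and at chr9:4794955-4795838 with 12.9 untreated (rank 1011 of 66622). The KCl region reached across the RefSeq start site into the promoter shown above, and to the first bases of the lncRNA Gm46100 on its far side. Rpc155 was at chr9:4795124-4795719 with 17.4 with KCl and at chr9:4795217-4795684 with 11.4 untreated. Its summits lay 826 bp (KCl) and 810 bp (untreated) inside the gene, 3 and 18 bp from the Gtf3c1 summits. H3K27ac over the start had 10.1 with KCl and 8.51 untreated. The rest of the locus, which is 388342 bp long in all, had 2 further Gtf3c1 regions with KCl and 6 untreated. Those further regions made the covered length shorter with KCl, 1.82 kb against 2.90 kb untreated, although the start region was wider.

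Gria2 encodes GluA2, the edited subunit that sets calcium permeability. Of the AMPA genes it had the most Gtf3c1 along its length, 33 regions over 10.5% of the locus with KCl and 31 over 10.6% untreated. At the start the regions were arranged differently. With KCl the strongest region was narrow, chr3:80799844-80800356 at a fold enrichment of 13.5, and a separate region at chr3:80802093-80803307 (5.85) covered the start site. Untreated, 1 region of 3607 bp, chr3:80799826-80803432 at 10.0, ran over both. Rpc155 was listed at different positions in each condition. With KCl it lay on the inner site, chr3:80799859-80800193 (5.42), with its summit 2813 bp downstream of the RefSeq start. Untreated it lay at chr3:80801567-80802118 (3.57) and at the promoter itself, chr3:80802840-80803132 (3.91), the bases in capitals above. An H3K27ac domain spanned all of these sites, 8898 bp wide at 15.3 with KCl and 8234 bp wide at 13.2 untreated.

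**Figure D2:**
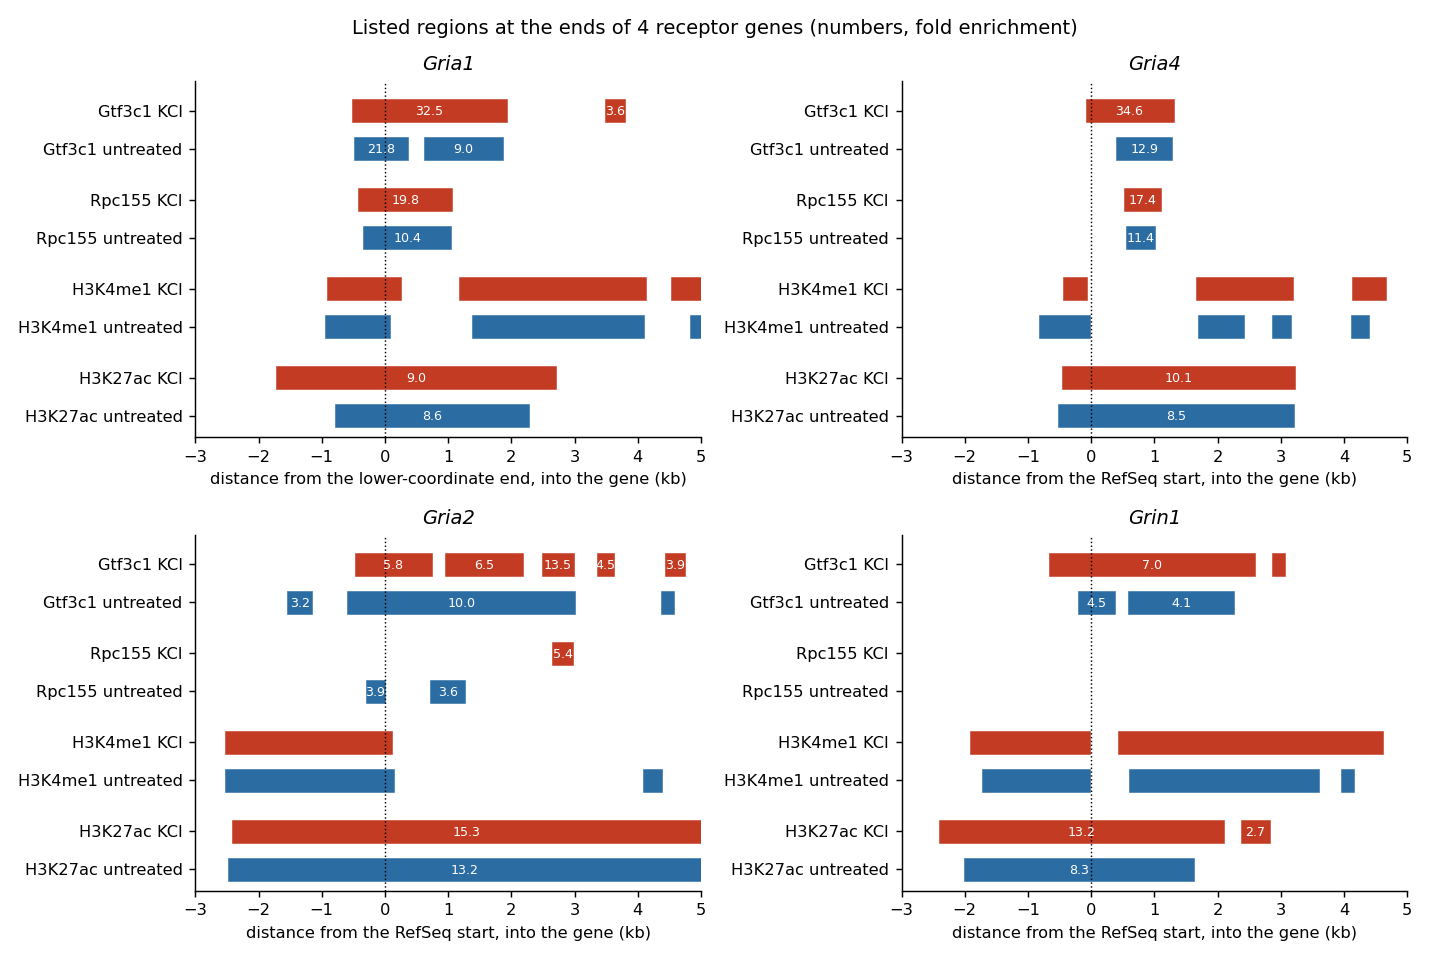
Listed regions around the end of Gria1 with the factors and the RefSeq starts of Gria4, Gria2 and Grin1, with distance in kb on the horizontal axis (positive into the gene) and 1 row per list, KCl above untreated. Bars are regions, and white numbers are fold enrichments of regions wide enough to label, except H3K4me1. At Gria1 and Gria4 the Gtf3c1 bars (32.5 and 34.6 with KCl, 21.8 and 12.9 for the strongest untreated) lie over Rpc155 bars in both conditions, while Grin1 has no Rpc155 bar.

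Grin1 encodes GluN1, present in every NMDA receptor. Its start carried a wide Gtf3c1 region with KCl, chr2:25316592-25319856 (3265 bp, fold enrichment 7.05), against 2 regions in the same stretch untreated, chr2:25318813-25319400 (588 bp, 4.48) over the start and chr2:25316923-25318598 (1676 bp, 4.08) inside the gene. H3K27ac at the start had a fold enrichment of 13.2 over 4510 bp with KCl and 8.25 over 3639 bp untreated. Summed over the locus, Gtf3c1 covered 7.56 kb with KCl and 7.01 kb untreated, and H3K27ac covered 9.11 kb with KCl and 8.50 kb untreated. With a q of 1e-05 or lower both directions turned round. Gtf3c1 then covered 4.83 kb with KCl and 6.07 kb untreated, and H3K27ac 6.27 kb with KCl and 8.19 kb untreated. The 3 untreated Rpc155 regions of the locus (fold enrichments of 2.89 to 3.23) had their summits in the lower flank, at or near Tmem210 and Lrrc26, and none was in the Grin1 body. The KCl list had none at this locus. The Grin1 antisense RNA Grin1os and Lrrc26 overlap or adjoin the gene, and ChIP does not separate strands.

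Grin2a encodes GluN2A, the subunit that becomes prominent as cortex matures. In contrast with Gria1 and Gria4, its strongest Gtf3c1 site had the lower value with KCl. That site lies inside the gene, at chr16:9663611-9663920 with a fold enrichment of 7.36 with KCl (rank 3305 of 58090) and at chr16:9663262-9664006 with 17.7 untreated (rank 345 of 66622). Rpc155 was listed on it untreated, at chr16:9663666-9664036 with 7.30, and not with KCl. All 5 untreated Rpc155 regions of Grin2a lay inside the gene and each overlapped Gtf3c1, H3K4me1 and H3K27ac regions of the untreated list. The KCl list had 0. Gtf3c1 itself was listed 22 times with KCl and 23 times untreated, over 8.70 kb and 11.4 kb. H3K27ac regions numbered 20 over 19.5 kb with KCl and 31 over 25.7 kb untreated, yet the region at the higher-coordinate end had 9.86 with KCl and 7.49 untreated. The difference in acetylated length was therefore among the internal regions.

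**Figure D3:**
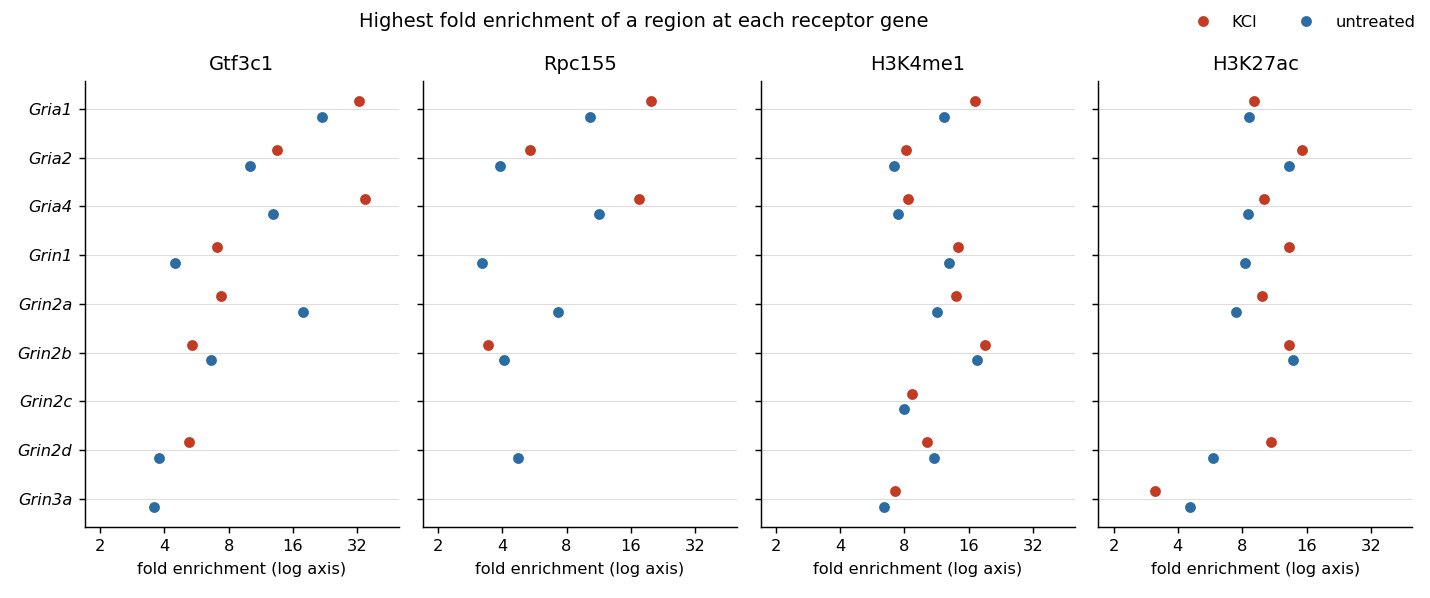
The highest deposited fold enrichment of any region at each locus, on a log axis with base 2, by gene and antibody, with 1 point per list (KCl above, untreated below). Gria4 reaches 34.6 with KCl and 12.9 untreated for Gtf3c1, Grin2a has 7.36 and 17.7, and a missing point means that no region was listed.

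Grin2b encodes GluN2B, the subunit that dominates in young cortex and binds CaMKII. It was the receptor gene with the most Gtf3c1 regions: 156 covering 72.2 kb (15.3% of the locus) with KCl and 106 covering 40.4 kb (8.59%) untreated, a ratio of 1.79. The extra 31.8 kb with KCl was the ninth largest gain among 21883 genes (rank 9), in a gene of 460.4 kb. By share of the locus, which allows for gene length, it had rank 33 with KCl and rank 71 untreated among 2428 genes of at least 100 kb. The regions were weak. Their median fold enrichment was 3.41 with KCl and 3.22 untreated, and the highest was 5.38 with KCl and 6.63 untreated. With q of 1e-05 or lower, 46 regions over 30.3 kb were left with KCl and 23 over 13.0 kb untreated.

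The additional coverage was spread along Grin2b. Divided into 10 equal parts from the lower-coordinate end, the gene had the higher covered share with KCl in 9. In the fifth part Gtf3c1 covered 28.2% with KCl and 13.5% untreated, and in the second 15.0% with KCl and 3.00% untreated. The ninth was the exception, with 6.11% with KCl and 6.88% untreated. H3K4me1, measured over the same gene, had 120 regions over 116 kb with KCl and 125 over 114 kb untreated. H3K27ac had 17 regions over 23.7 kb with KCl and 25 over 24.9 kb untreated.

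Of the 156 KCl regions of Gtf3c1 at Grin2b, 47 overlapped an untreated region and 109 were in the KCl list alone, while 51.1% of the whole KCl list overlapped an untreated region. The 109 had a median width of 297 bp and a median fold enrichment of 3.35, and 45.0% lay on H3K4me1, 7.34% on H3K27ac and 54.1% on neither. The 47 shared ones had a median width of 494 bp and a median of 3.59, with 63.8% on H3K4me1, 25.5% on H3K27ac and 36.2% on neither. The 56 regions in the untreated list alone had 48.2% on H3K4me1, 5.36% on H3K27ac and 51.8% on neither. Over all Gtf3c1 regions of Grin2b, 12.8% overlapped H3K27ac with KCl (exact binomial 95% interval 8.01 to 19.1, counting error only) and 15.1% untreated. In the whole Gtf3c1 lists the share was 51.6% with KCl and 48.9% untreated. On H3K4me1 lay 50.6% of the Grin2b regions with KCl and 52.8% untreated, against 70.4% and 74.9% in the whole Gtf3c1 lists.

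**Figure D4:**
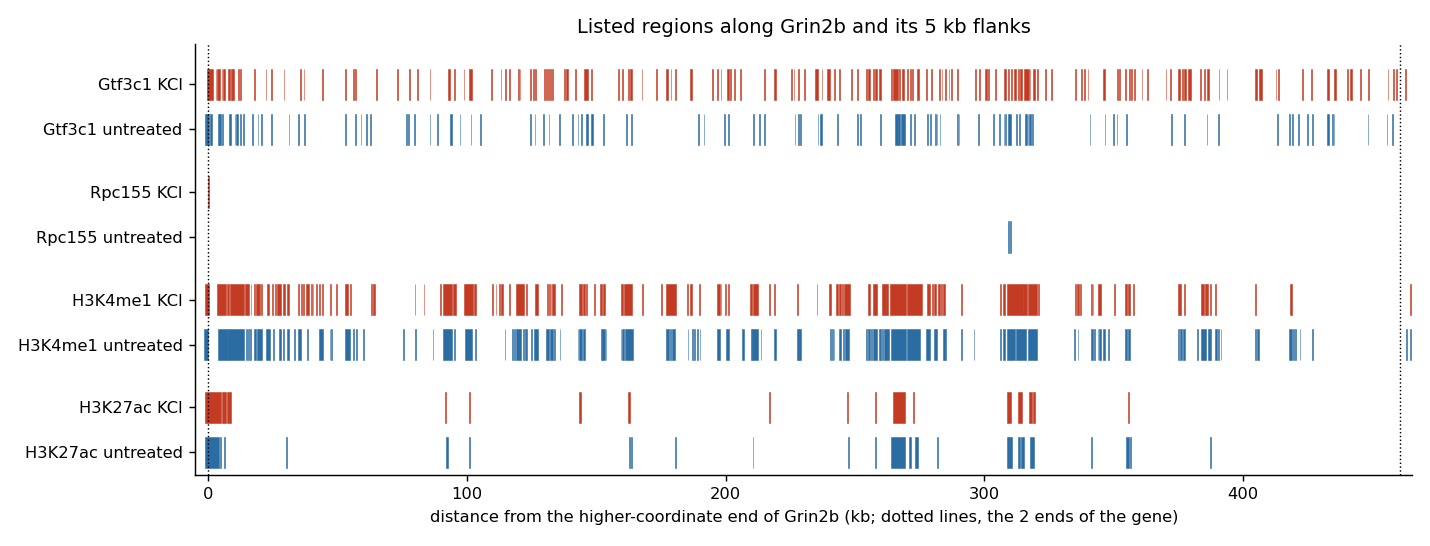
Regions along Grin2b and its flanks, with distance in kb from the higher-coordinate end on the horizontal axis and 1 row per list, KCl above untreated. Each bar is a listed region. The Gtf3c1 row has 156 bars with KCl and 106 untreated, spread over the gene, while the H3K4me1 and H3K27ac rows have clusters at similar distances in both conditions.

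**Figure D5:**
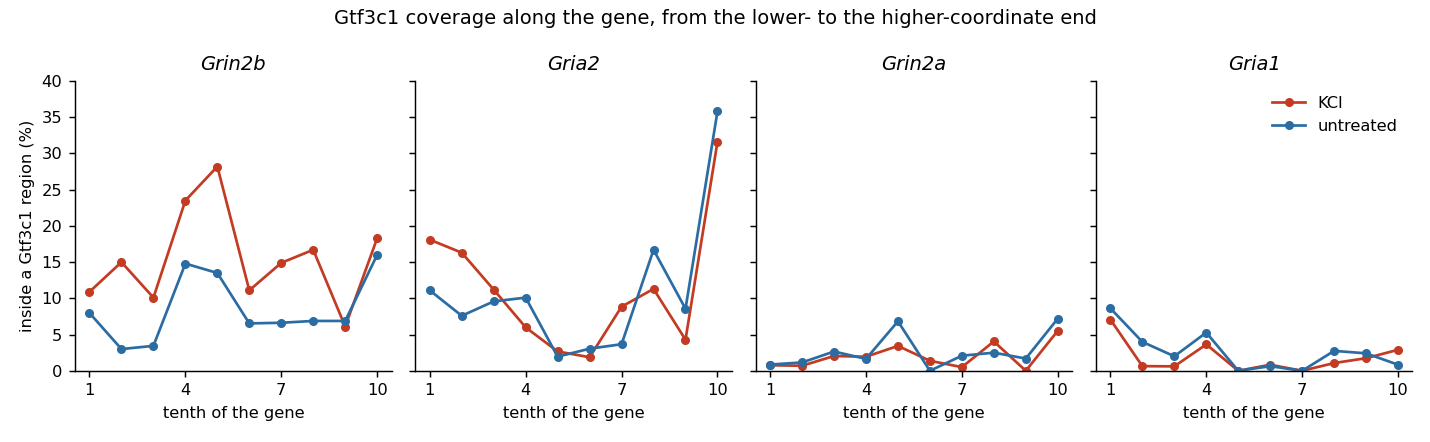
The percentage of each of 10 equal parts of a gene inside a Gtf3c1 region, from the lower- to the higher-coordinate end, for Grin2b, Gria2, Grin2a and Gria1, with KCl and untreated as lines and 1 list behind each. Grin2b lies higher with KCl in 9 of 10 parts, and Gria2 in 5 of 10.

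The strongest Gtf3c1 sites of Grin2b were also acetylated. At the higher-coordinate end H3K27ac had a fold enrichment of 13.2 with KCl and 13.8 untreated. Gtf3c1 regions lay on it, with KCl at chr6:136171817-136174281 (5.38). Untreated they lay at chr6:136171999-136172895 (6.63) and at chr6:136173192-136174313 (4.48), and the KCl summit fell in the stretch of the latter. An internal acetylated site, chr6:135904160-135909080 with KCl and chr6:135904455-135909718 untreated, had 8.78 with KCl and 7.24 untreated. Gtf3c1 on this Grin2b site was at chr6:135907026-135908949 (5.38, equal to the value at the end of the gene) with KCl and at chr6:135907191-135908125 (5.37) untreated. It also held the highest H3K4me1 of the gene, 19.1 with KCl and 17.4 untreated. Rpc155 had 1 region with KCl, chr6:136173458-136173738 (3.45), where the lncRNA Gm26653 overlaps the end of Grin2b. Untreated it had 2, chr6:135863366-135863703 (3.23) and chr6:135864081-135864418 (4.07), inside the gene and inside the lncRNA Gm14330. Both overlapped the untreated Gtf3c1 region chr6:135863472-135864416 (6.09), the second strongest of Grin2b in that list, which was also acetylated.

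Grin2c encodes GluN2C, best known from cerebellar granule cells. It had no Gtf3c1, Rpc155 or H3K27ac region in either list. H3K4me1 was present at 8 regions with KCl and 7 untreated, the one over the start at a fold enrichment of 8.30 with KCl and 8.00 untreated. Grin3a encodes GluN3A, a subunit of developing neurons that lowers calcium entry. Gtf3c1 had 0 regions there with KCl and 2 untreated, at 3.58 and 3.22, and Rpc155 had none. Its single H3K27ac region was 1215 bp wide at 3.12 with KCl and 736 bp wide at 4.57 untreated, so the wider region had the lower enrichment.

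Grin2d encodes GluN2D, found mainly in interneurons and early in development. Of its Gtf3c1 regions, 4 of 5 with KCl and 5 of 6 untreated had their summits in the flanks. At the RefSeq start Gtf3c1 was at chr7:45866629-45867088 (2.85) with KCl and chr7:45866350-45867854 (3.58) untreated. H3K27ac at the start was at 3.26 with KCl and 4.44 untreated. Both of the locus's highest H3K27ac regions lay beyond the gene, at Kdelr1 (10.9 with KCl and 5.06 untreated) and at Grwd1 (9.72 with KCl and 5.84 untreated). Rpc155 had 0 regions with KCl and 2 untreated, 1 at Grwd1 and 1 on the Grin2d start, chr7:45866378-45866783 (3.57), the bases in capitals above.

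Every Rpc155 region at the 9 genes, 4 of 4 with KCl and 16 of 16 untreated, overlapped both a Gtf3c1 and an H3K27ac region of its own condition. Over the whole Rpc155 lists 81.8% of regions with KCl and 76.3% untreated overlapped Gtf3c1, and 87.3% and 80.6% overlapped H3K27ac. The Rpc155 regions common to both conditions at these loci were those of Gria1 and Gria4, 50.0% of the 4 KCl regions and 12.5% of the 16 untreated ones. These shares lie near the 51.9% and 17.6% of the whole Rpc155 lists. Inside the genes, with summits more than 1 kb from either end, 67 of 339 H3K4me1 regions with KCl and 77 of 341 untreated also carried H3K27ac. Over the whole H3K4me1 lists, gene ends included, 28.4% and 29.3% did. Of the 67 and 77, 31 with KCl and 48 untreated carried Gtf3c1 as well. Rpc155 was on 0 with KCl and 7 untreated, 5 of the 7 in Grin2a and 1 over the RefSeq start of Grin2d. Of all H3K4me1 regions at the 9 genes, acetylated or not, 28.9% with KCl and 28.1% untreated overlapped Gtf3c1. For Rpc155 the shares were 0.562% and 3.06%. Over the whole H3K4me1 lists, acetylated or not, 17.7% and 22.3% overlapped Gtf3c1, and 1.88% and 5.25% overlapped Rpc155. At Grin2b the count with H3K27ac and Gtf3c1 was 12 in each condition.

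The wider glutamatergic set was described by the same counts, with the lists chosen when earlier results were known, and is read against the 27.9% of all genes with longer and the 29.5% with shorter Gtf3c1 coverage (13.2% and 42.9% of long genes). Of 15 auxiliary subunit genes, Gtf3c1 coverage was longer with KCl in 1 (Cacng8, a TARP) and shorter in 6, among them Cnih3 and Shisa9, whose proteins bind AMPA receptors. Of 19 scaffold and signalling genes it was longer in 5, near the share of all genes, and shorter in 3. Among the 5 were Dlg4 (PSD-95), with 10432 bp with KCl and 6319 bp untreated, and Homer1, a scaffold gene with an activity-induced short form, with 45622 bp with KCl and 3351 bp untreated. Of 11 GABA-A receptor genes with a region it was longer in 1 (Gabrg1) and shorter in 6.

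The activity-induced genes, a check that the KCl cultures had been depolarized, gave another pattern. Gtf3c1 coverage was longer with KCl in 11 of 12 (Fos had 7420 bp with KCl and 1961 bp untreated) and shorter in 0. Their median ratio was 3.78, against 0.761 at the receptor genes, 1.01 over all genes and 0.789 over genes of at least 100 kb. Rpc155 was longer in 8 of 11 and shorter in 1 (Arc), and H3K27ac was longer in 9 of 12. Over all genes Rpc155 was longer in 13.6% and shorter in 74.6%, and H3K27ac was longer in 40.6%. H3K4me1 passed the 1.5-fold limit at none of the genes of these 4 lists.

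The labelled cell type was checked by H3K27ac within 1 kb of a gene end. Pan-neuronal markers had it at 6 of 6 genes in both conditions, glutamatergic markers at 5 of 5 and GABAergic markers at 5 of 5. Astrocyte markers had it at 2 of 5 with KCl and 3 of 5 untreated, oligodendrocyte-lineage markers at 1 of 5 in each, and microglial, endothelial and non-neural markers at none. H3K4me1 at the same distance separated the lists less, with 4 of 5 oligodendrocyte-lineage markers, 4 of 5 astrocyte markers and 3 of 5 non-neural markers (Myod1, Ins2 and Cdx2) in each condition. Which cells of the cultures carried a region was not tested. The lists held 58090 and 66622 regions for Gtf3c1, 193683 and 192225 for H3K4me1 and 58124 and 65486 for H3K27ac, with KCl and untreated. Read counts are not part of the lists, and library depth is therefore unknown.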

How the data were processed

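Per the submitters' processing notes, Bowtie2, MACS2 and the build GRCm38/mm10 were used; versions are not stated, nor whether the 3 replicates were pooled. In the deposited lists the fold enrichment is a ratio of summit to local background. The p-value and q-value of each region are deposited on a −log10 scale, and the deposited score is that of q times 10, without its decimals. The highest q was just under 0.05. No read counts come with the lists, so depth is unknown.

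Regions were assigned to RefSeq genes (GRCm38.p6) with 5 kb flanks, and shared regions had at least 1 bp in common. Coverage was summed per locus with Python 3.11.15, NumPy 2.4.6, pandas 2.3.3 and SciPy 1.17.1. The counting was checked on simulated regions. With 1 list per group no test was run. Positions are 1-based. Strand comes from the promoter table, which held 5 of the 9 genes. The 9 genes were all named, with the strongest regions and those at gene ends; genes of further lists were named where coverage differed at least 1.5 times. The members and lists were chosen with earlier results of these data known. The input libraries were not analysed here, and 0 columns of per-sample values were left out. The result of 1 further gene list is not reported here.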

Additional observations from a re-analysis of the deposited data

How the results depend on the processing

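The direction at Grin2b for Gtf3c1, longer with KCl, held, at a log2 ratio of 0.84 to 1.22, under each alternative at which regions of both lists were left (at a fold enrichment of at least 6 it had 0 regions with KCl and 2 untreated). With a q of 1e-05 or lower the regions at the 9 genes numbered 78 with KCl and 65 untreated for Gtf3c1. Rpc155 had 1 each at Gria1, Gria2 and Gria4 with KCl, and 6 in all untreated. H3K4me1 had 222 regions with KCl and 216 untreated, H3K27ac 30 with KCl and 43 untreated. The 1 gene with shorter Gtf3c1 coverage was then Gria1, with 2467 bp with KCl and 4486 bp untreated. Gria4 no longer passed the limit, and Grin3a had no region left. Rpc155 was longer at 1 gene (Gria2, shorter without this threshold) and shorter at 3. Longer H3K4me1 numbered 1 and shorter H3K27ac 2, and 73.3% of KCl H3K27ac regions were shared. With a fold enrichment of at least 6 the regions numbered 7 with KCl and 11 untreated for Gtf3c1, 2 with KCl and 3 untreated for Rpc155. H3K4me1 had 69 with KCl and 74 untreated, H3K27ac 9 with KCl and 7 untreated. The 2 genes with longer Gtf3c1 coverage were then Grin1 and Gria4, and 1 gene had shorter Rpc155 coverage. Grin2b, called longer without the filter, was instead shorter for Gtf3c1, with 0 bp with KCl and 1842 bp untreated, as were Gria2 and Grin2a. At Gria4 that filter turned the Gtf3c1 ratio round, to a log2 of 0.66, 1393 bp with KCl and 884 bp untreated, since the start region alone was left.

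With lists of equal length 7 untreated Rpc155 regions were left, 1 gene had shorter Gtf3c1 and 2 had shorter Rpc155 coverage, 30.2% of KCl Gtf3c1 regions were shared, and the Rpc155 ratio at Gria2 turned to a log2 of 0.19, 335 bp with KCl and 293 bp untreated. With a limit of 2 times, 0 genes were longer and 1 was shorter for Gtf3c1, and 0 were longer for H3K27ac. Flanks of 20 kb gave 2 genes with longer Gtf3c1, the gene body alone 2 with longer H3K27ac, and asking for 50% of the shorter region in common 67.1% shared H3K4me1 regions. Without Grin2b, chosen after seeing the data, 86 Gtf3c1 regions were counted with KCl and 100 untreated. The other 83 comparisons of counts and shares stayed within the limits set for them.

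No paired analysis was possible because each antibody and condition has 1 list, and leaving out a replicate was not an option. Depth is unknown, so a region missing from a list is not shown to be unoccupied.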
